A study of Mus musculus with 13 samples.

Results

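The transcription factors Tbr1, Fezf2, Neurod1, Neurod2, Neurod6, Bcl11b, Emx1 and Lhx2, 8 genes that act in the cerebral cortex, were followed in mouse high-grade glioma of 2 models and in brain tissue of control mice. They were chosen by name, through the gene symbols of the platform's probe table, and all 8 were represented, by 12 of the 45281 probes. Of these, 6 genes had a probe detected on at least 3 arrays and were tested among 11927 genes, while Neurod1 and Neurod6 were not.

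Total RNA of flash-frozen tissue was hybridised to 13 single-colour Illumina mouse arrays on 3 slides. The groups were 3 tumors of the Nestin-creERT2 model, 3 control brain samples of that model, 4 tumors of the NG2-creERTM model and 3 control brain samples of that model. Tumors were taken when mice showed neurological symptoms, and controls came from the same place in the brain of control mice, a place not named in the labels. Of 5 NG2 tumors in the design text, 1 was not analysed here. In both models Cre recombinase removed tumor suppressor genes, which the labels do not name, in cells that used regulatory sequences of nestin, a filament protein found in neural stem cells, or of NG2, a proteoglycan of oligodendrocyte progenitors and pericytes. The CreER forms need tamoxifen, and strain, age, sex and induction are not stated in the labels. The control genotypes are labelled only as controls of the driver line. Tumors are labelled as independent and controls as biological replicates, and each array was 1 sample.

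The cerebral cortex and hippocampus form in the dorsal telencephalon, where excitatory neurons arise from local progenitors. The homeodomain factors Emx1 and Lhx2 act in those progenitors, Lhx2 as a selector of cortical identity, and Emx1 stays on in many excitatory neurons. The bHLH factors Neurod1, Neurod2 and Neurod6 come on as these neurons are born and mature. Among deep-layer neurons, Tbr1 marks those that project to the thalamus, while the zinc finger factor Fezf2 specifies those that project to the brainstem and spinal cord and acts upstream of Bcl11b, also called Ctip2. Bcl11b is also strongly expressed in the medium spiny neurons of the striatum, and Tbr1 in the projection neurons of the olfactory bulb.

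The upstream promoter sequences of 3 of these genes are shown because Tbr1 and Fezf2 had the largest differences between the control groups and because Neurod2 was the measured NeuroD factor. They are the 250 bases before the RefSeq start site, 5′ to 3′ on the gene's strand in build GRCm38.p6. Tbr1 lies at chr2:61804203-61804452 on the plus strand, Fezf2 at chr14:12345866-12346115 on the minus strand and Neurod2 at chr11:98329646-98329895 on the minus strand. Capitals mark the E-box CANNTG, the core bound by bHLH factors, and TAATTA, a core bound by many homeodomain factors. Each of these motifs reads the same on both strands, and no match of one overlapped a match of the other.
Tbr1: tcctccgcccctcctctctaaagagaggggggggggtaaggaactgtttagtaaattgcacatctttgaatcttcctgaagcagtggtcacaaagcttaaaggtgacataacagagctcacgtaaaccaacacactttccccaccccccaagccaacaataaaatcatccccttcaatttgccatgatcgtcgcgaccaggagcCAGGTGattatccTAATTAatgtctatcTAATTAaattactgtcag
Fezf2: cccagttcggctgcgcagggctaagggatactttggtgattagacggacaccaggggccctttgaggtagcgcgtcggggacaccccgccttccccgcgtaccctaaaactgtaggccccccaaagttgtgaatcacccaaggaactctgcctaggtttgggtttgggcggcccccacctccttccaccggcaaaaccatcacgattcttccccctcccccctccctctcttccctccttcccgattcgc
Neurod2: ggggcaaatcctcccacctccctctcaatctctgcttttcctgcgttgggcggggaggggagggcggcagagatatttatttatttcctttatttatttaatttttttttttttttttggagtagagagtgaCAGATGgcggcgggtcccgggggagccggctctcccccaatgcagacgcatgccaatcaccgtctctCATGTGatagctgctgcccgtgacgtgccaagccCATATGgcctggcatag
The Tbr1 window holds 1 E-box and 2 TAATTA cores, both between that E-box and the start site. The Neurod2 window holds 3 E-boxes, of which the one at -118 reads CAGATG, a form preferred by NeuroD factors, and the Fezf2 window holds neither motif. Among 32851 upstream windows of the same length in the RefSeq table, 66.2% held an E-box, 14.4% held CAGATG or its reverse complement CATCTG, and 4.84% held TAATTA. The 8 genes had 9 windows, of which 5 held an E-box, 1 held CAGATG or CATCTG and 1 held TAATTA. These are matches of letters only.

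All values below are normalised log2 levels of 1 probe per gene, and levels of different genes are not set against each other. Detected means a detection p-value below 0.05. Changes are given ± the standard error of a limma fit to all 13 arrays, and p-values were adjusted by the Benjamini-Hochberg method over 11927 genes, with a threshold of 0.05. The lowest level detected on an array ran from 5.29 to 5.53, so values near 5 are at background.

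In short, each of the 6 measured genes was lower in the tumors of both models than in the matching controls. Of 8 genes, 6 fell past the threshold in Nestin tumors, where 21.9% of all genes tested fell, and 6 fell in NG2 tumors, where 24.1% fell. In both comparisons the groups did not overlap for any of the 6, which held for 27.8% of all genes in the lower direction in Nestin tumors and for 24.3% in NG2 tumors. Emx1 was detected on control arrays only, and Tbr1 and Neurod2 on all 6 control arrays and 2 tumor arrays, so their presence among the tested genes depended on the controls. Fezf2 and Bcl11b were detected on all 13 arrays and Lhx2 on 10. In whole tissue, fewer neurons and less RNA of a gene per neuron cannot be told apart.

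**Figure D1:**
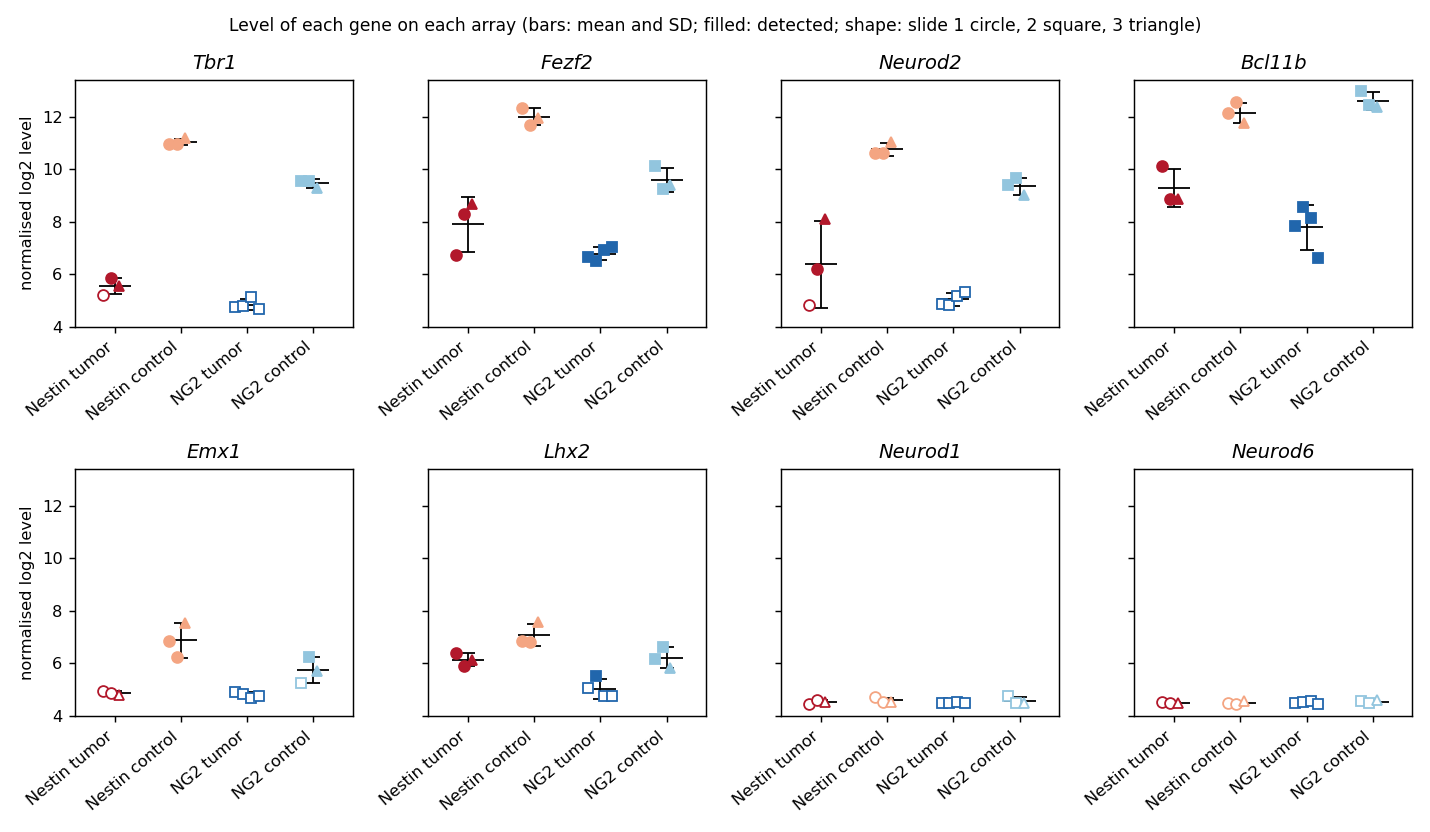
Normalised log2 level of each of the 8 genes (vertical axis) on each array of the 4 groups, with the mean and SD of a group as bars, filled points for detected values and shapes for the slide. Tumor points of Tbr1, Fezf2, Neurod2, Bcl11b, Emx1 and Lhx2 lie below all control points of the same model, and no array detected Neurod1 or Neurod6.

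Tbr1, the deep-layer T-box factor, read 5.22, 5.86 and 5.56 in Nestin tumors 1, 2 and 3, against 10.97, 10.96 and 11.17 in Nestin controls. It read 4.74, 4.78, 5.13 and 4.67 in NG2 tumors, against 9.53, 9.56 and 9.27 in NG2 controls. Tumors 2 and 3 of the Nestin model were the only tumors in which it was detected, and every control was above every tumor by over 3 log2 units. Tbr1 was lower in Nestin tumors by a fitted 44.9-fold (-5.49 ± 0.24, adjusted p = 5.4e-09), not an exact size because Nestin tumor 1 was not detected. In NG2 tumors it was not well above background on any array and was at least 15.9-fold lower (adjusted p = 3.23e-09). An "at least" value sets the control mean against the tumor mean with each array raised to its lowest detected level.

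Fezf2, the specifier of subcerebral projection neurons, read 6.72, 8.29 and 8.67 in Nestin tumors, against 12.34, 11.70 and 11.97 in Nestin controls. In NG2 tumors it read 6.65, 6.48, 6.91 and 7.05, against 10.13, 9.23 and 9.41 in NG2 controls. Nestin tumor 1 lay near the NG2 tumors, the other two Nestin tumors above them. Fezf2 fell by 4.11 ± 0.42 in Nestin tumors (17.2-fold lower, adjusted p = 4.59e-06) and fell by 2.81 ± 0.39 in NG2 tumors (7.02-fold lower, adjusted p = 4.77e-05).

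Neurod2, which drives the maturation of cortical excitatory neurons and their synapses, was the most uneven of the 6 genes among Nestin tumors. It read 4.81, 6.21 and 8.09 there, against 10.61, 10.61 and 11.04 in Nestin controls. Nestin tumor 1 was at background while Nestin tumor 3 was well above it. In NG2 tumors it read 4.86, 4.83, 5.17 and 5.33, none detected, against 9.38, 9.67 and 9.01 in NG2 controls. Neurod2 fell by a fitted 4.38 ± 0.57 in Nestin tumors (20.8-fold lower, adjusted p = 3.81e-05), not an exact size because Nestin tumor 1 was not detected. Neurod2 was at least 14.9-fold lower in NG2 tumors (adjusted p = 1.65e-05).

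Bcl11b, the factor of subcerebral projection neurons and striatal medium spiny neurons, stayed detected in every tumor. It read 10.13, 8.86 and 8.85 in Nestin tumors, against 12.14, 12.54 and 11.78 in Nestin controls. In NG2 tumors it read 7.83, 8.54, 8.15 and 6.59, against 12.98, 12.44 and 12.38 in NG2 controls. Nestin tumor 1, the lowest Nestin tumor for Fezf2 and Neurod2, was the highest for Bcl11b. Bcl11b fell by 2.88 ± 0.45 in Nestin tumors (7.35-fold lower, adjusted p = 0.000171) and fell by 4.82 ± 0.42 in NG2 tumors (28.3-fold lower, adjusted p = 6.1e-07).

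Emx1, the dorsal telencephalic homeodomain factor, was dim throughout. It read 4.96, 4.88 and 4.80 in Nestin tumors, against 6.86, 6.23 and 7.55 in Nestin controls. It read 4.93, 4.83, 4.70 and 4.76 in NG2 tumors, against 5.26, 6.25 and 5.70 in NG2 controls, where replicate 1 was not detected. No tumor reached the detected range. Emx1 was at least 2.77-fold lower in Nestin tumors (adjusted p = 0.000126). It was also lower in NG2 tumors (fitted change -0.93 ± 0.28, adjusted p = 0.0137). That fall has no exact size, because NG2 control 1 and every NG2 tumor were not detected. The NG2 call was lost without NG2 control 2 (-0.69, adjusted p = 0.078).

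Lhx2, the selector of cortical progenitors, changed least in Nestin tumors among the 6 genes. It read 6.40, 5.90 and 6.13 in Nestin tumors, all detected, against 6.85, 6.83 and 7.59 in Nestin controls. In NG2 tumors it read 5.07, 5.54, 4.76 and 4.75, detected in replicate 2 only, against 6.15, 6.64 and 5.84 in NG2 controls. Lhx2 fell by 0.94 ± 0.30 in Nestin tumors (1.92-fold lower, adjusted p = 0.0181). It also fell in NG2 tumors (fitted change -1.18 ± 0.28, adjusted p = 0.0028), where 3 of 4 tumors lay below the lowest detected level, so the size of that fall is not exact. The Nestin call was lost without Nestin tumor 2 (-0.82, adjusted p = 0.0607), without Nestin control 3 (-0.70, adjusted p = 0.0897), within slide 1 (-0.68, adjusted p = 0.159) and with each array scaled to its median (-0.54, adjusted p = 0.116).

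Neurod1 and Neurod6, the other two NeuroD factors, could not be followed. Neurod1 ran from 4.47 to 4.75 over the 13 arrays, with a detection p-value of at least 0.325. Neurod6 ran from 4.46 to 4.59, with a detection p-value of at least 0.652. Both probes were as dim in control brain, where neuronal genes were bright, as in tumors. With no filter on dim probes the differences between groups lay between -0.08 and 0.05, with adjusted p of at least 0.448 over 18524 genes. These probes give no level for either gene.

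**Figure D2:**
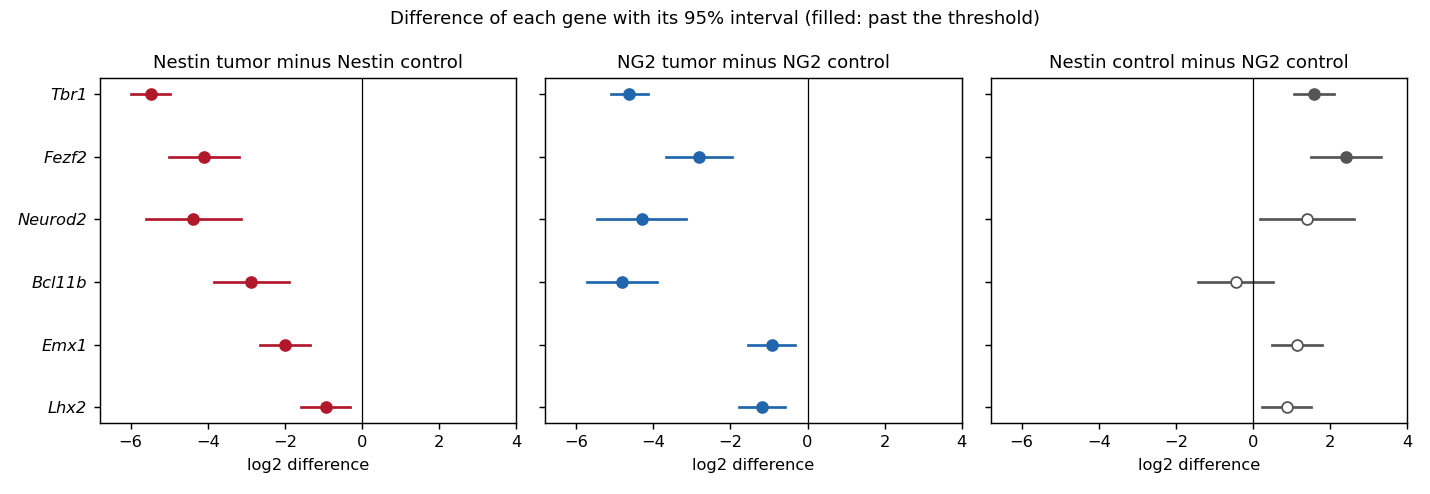
Log2 difference of the 6 measured genes (horizontal axis) in 3 comparisons, as fitted value and 95% interval, filled where the adjusted p was below 0.05. All 6 lie below 0 in both tumor comparisons, and Tbr1 and Fezf2 are higher in Nestin controls than in NG2 controls.

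Slides held arrays of more than 1 group, so the changes were also taken within slides. Slide 1 held 2 tumors and 2 controls of the Nestin model, slide 2 all 4 NG2 tumors beside 2 controls of that model, and slide 3 replicate 3 of the Nestin tumors, the Nestin controls and the NG2 controls. Tbr1 differed by -5.42 within slide 1 and -5.61 within slide 3, where 1 tumor and 1 control give no spread. Fezf2 differed by -4.51 and -3.30, Neurod2 by -5.10 and -2.95, Bcl11b by -2.85 and -2.93, Emx1 by -1.62 and -2.74, and Lhx2 by -0.68 and -1.46 within slides 1 and 3. Within slide 2 the NG2 changes were -4.71 for Tbr1, -2.90 for Fezf2, -4.47 for Neurod2, -4.93 for Bcl11b, -0.95 for Emx1 and -1.37 for Lhx2. With the slide as a block all 6 genes passed in both comparisons, with adjusted p of at most 0.0352.

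Tumor arrays were brighter before normalization, with median raw signals from 175.7 to 209.1 in tumors and 116.9 to 142.1 in controls. Scaling each array to its median, in place of quantile normalization, moved the median change of all genes to 0.45 in Nestin tumors, against 0.06, and to 0.47 in NG2 tumors, against 0.09. The share of calls that were higher moved to 72.9% under this scaling, against 52.6%, in Nestin tumors and to 71.8%, against 52.4%, in NG2 tumors. Under it each of the 6 genes was still lower in the tumors of both models, and Lhx2 in Nestin tumors alone lost its call.

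Fezf2 and Bcl11b were measured by several probes. A second Fezf2 probe, ILMN_2932692, read 4.51, 5.47 and 5.69 in Nestin tumors, against 10.42, 9.95 and 10.40 in Nestin controls. It read 4.60, 4.77, 4.63 and 4.61 in NG2 tumors, none detected, against 7.61, 7.08 and 7.62 in NG2 controls. In a fit over all 23904 probes that passed the filter it fell by 5.03 ± 0.30 in Nestin tumors (adjusted p = 4.41e-08) and was at least 3.94-fold lower in NG2 tumors (adjusted p = 2.29e-06). The brighter probe, ILMN_2512430, changed by -4.11 ± 0.42 and -2.81 ± 0.39 in that fit (adjusted p = 4.43e-06 and 4.66e-05). Both probes fell in both models, and the dimmer one was not detected in Nestin tumor 1 or any NG2 tumor, where the brighter one was.

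All 4 Bcl11b probes fell in both models. In Nestin tumors ILMN_2611022, the brightest, changed by -2.88 ± 0.45, ILMN_2436183 by -3.09 ± 0.46 and ILMN_2443624 by -3.23 ± 0.34. In NG2 tumors the changes were -4.82 ± 0.42, -5.23 ± 0.43 and -4.38 ± 0.32 in the same order (largest adjusted p of these 6 changes 0.000169). The dimmest probe, ILMN_1223119, was not detected in any tumor and read at most 6.78 in controls. It was at least 1.30-fold lower in Nestin tumors and at least 2.34-fold lower in NG2 tumors (adjusted p = 0.00133 and 1.15e-06).

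**Figure D3:**
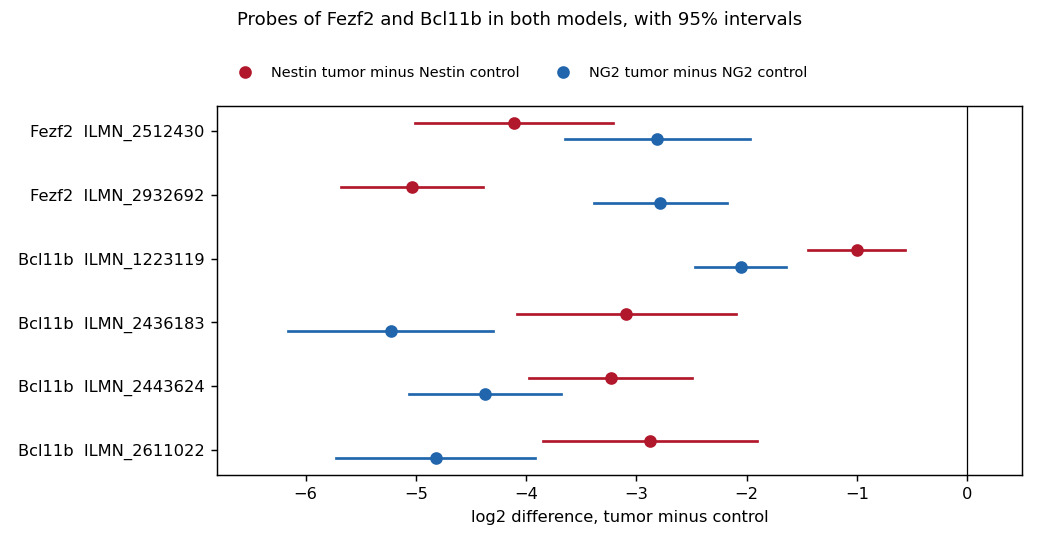
Log2 difference between tumor and control (horizontal axis) for the 2 Fezf2 and 4 Bcl11b probes in Nestin and NG2 comparisons, with 95% intervals of the fitted values, which are no bounds where tumors were not detected. Every probe lies below 0 in both models. The fitted Fezf2 falls are larger in the Nestin model and the Bcl11b falls in the NG2 model.

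The control groups had different starting levels. Tbr1 was 2.99-fold higher in Nestin controls than in NG2 controls (1.58 ± 0.24, adjusted p = 0.00167) and Fezf2 was 5.33-fold higher (2.41 ± 0.42, adjusted p = 0.00459), with no overlap of the groups. Of 8 genes, 2 were higher past the threshold, where 1.69% of all genes were, and 0 were lower, where 1.78% were. The second Fezf2 probe was higher by 2.82 ± 0.30 in the fit over probes (adjusted p = 6.83e-05).

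The other four measured genes did not pass between controls. The difference was 1.40 for Neurod2 (95% interval 0.17 to 2.63, adjusted p = 0.284), 1.14 for Emx1 (0.50 to 1.79, adjusted p = 0.0568), 0.88 for Lhx2 (0.24 to 1.51, adjusted p = 0.163) and -0.45 for Bcl11b (-1.42 to 0.53, adjusted p = 0.785). Neurod2 and Lhx2 did not overlap between the control groups, in the higher direction in Nestin controls, which held for 13.4% of all genes, and Emx1 and Bcl11b overlapped. Emx1 passed without Nestin control 2 (1.48, adjusted p = 0.0177), without NG2 control 2 (1.42, adjusted p = 0.0372) and with array weights (1.07, adjusted p = 0.0377). Neurod2 passed without Nestin tumor 3 (1.40, adjusted p = 0.0425), in a fit of the control groups alone (1.40, adjusted p = 0.00336) and with no background correction (1.23, adjusted p = 0.0243). Bcl11b was the only one of the 6 with a higher mean in NG2 controls. Its dimmest probe, ILMN_1223119, passed in that direction in the fit over probes (-0.89 ± 0.21, adjusted p = 0.0293), while the other three did not (adjusted p from 0.591 to 0.774).

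The control difference was also read within slide 3, which held 1 control of each model. It was 1.90 for Tbr1, 2.56 for Fezf2, 2.03 for Neurod2, 1.85 for Emx1, 1.74 for Lhx2 and -0.61 for Bcl11b, with no spread of its own. With the slide as a block the Tbr1 and Fezf2 differences were 1.83 and 2.96 and no longer passed (adjusted p = 0.0786 and 0.101), in a fit where the 2 control groups share only that slide.

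Regional marker genes were also set between the control groups, where 1.69% of all genes were higher in Nestin controls and 1.78% lower. Of 12 diencephalon, midbrain and hindbrain genes 0 were called in either direction. Of 5 hippocampal genes 1 was higher in Nestin controls, and of 4 cerebellar granule neuron genes 2, Cbln1 and Calb2, were lower. Olfactory bulb genes differed most, in the direction opposite to Tbr1 and Fezf2. Of 7 measured olfactory bulb genes 6 were lower in Nestin controls and 0 were higher (median -3.55, against 0.00 over all genes). The mean level of the 7 ran from 6.30 to 6.93 in Nestin controls, against 10.35 to 10.67 in NG2 controls. Doc2g, a marker of olfactory bulb mitral and tufted cells, read 5.08, 5.11 and 5.46 in Nestin controls from lowest to highest, none detected, against 10.83, 10.88 and 11.14 in NG2 controls, and was at least 46.3-fold lower (adjusted p = 4.84e-09). Th, the dopamine-synthesis enzyme of periglomerular neurons, was lower by 5.46 ± 0.23 (adjusted p = 6.22e-09). Tbr1 itself is expressed in olfactory bulb projection neurons, and the Nestin controls with the higher Tbr1 were those with the lower olfactory bulb markers. The part of tissue position in the Tbr1 and Fezf2 differences was not tested.

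Close relatives of Tbr1 were higher in NG2 controls, unlike Tbr1 itself. Eomes, the T-box factor of cortical intermediate progenitors and olfactory bulb projection neurons and a paralog of Tbr1, read 4.45, 4.50 and 4.63 in Nestin controls from lowest to highest, none detected, against 6.40, 7.07 and 7.13 in NG2 controls. It is also 1 of the 7 olfactory bulb genes. It was at least 2.74-fold lower in Nestin controls (adjusted p = 4.65e-06). Tbx21, the other close T-box paralog, was at least 4.44-fold lower there (adjusted p = 7.53e-06). Of 15 paralogs of the 8 genes 5 were measured, 2 of them lower and 0 higher (median -0.69). In NG2 tumors against NG2 controls both fell, Eomes at least 2.65-fold and Tbx21 at least 4.31-fold, while in the Nestin comparison neither group was well above background for either gene. Bcl11a, the paralog of Bcl11b, changed by -2.66 ± 0.85 in Nestin tumors and -4.25 ± 0.79 in NG2 tumors (adjusted p = 0.0195 and 0.000513).

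Other cortical genes were also set between the control groups, where 1.69% of all genes were higher in Nestin controls and 1.78% lower. Of 24 measured cortical layer and projection neuron factors, 3 were higher in Nestin controls and 0 lower (median 0.26). These were Zbtb18, a repressor needed for cortical neuron development, at 1.82 ± 0.22, Zfpm2 (Fog2), a cofactor found in deep-layer neurons, at 1.85 ± 0.47, and Nfix, a nuclear factor I gene, at 1.34 ± 0.21 (adjusted p = 0.000249, 0.0452 and 0.00176). Of 18 cortical excitatory neuron effector genes 3 were higher and 0 lower (median 0.42), with Ldb2, a LIM-domain binding cofactor, at 2.37 ± 0.42 (adjusted p = 0.00531). Slc17a7, which loads glutamate into synaptic vesicles of cortical neurons, differed by 0.34 ± 0.71 (adjusted p = 0.93). Of 8 dorsal telencephalon progenitor factors 3 were lower in Nestin controls and 0 higher (median -0.52), namely Eomes, Sp8 and Tfap2c, of which Eomes and Sp8 are also among the olfactory bulb genes. Of 9 pan-neuronal genes 0 were called in either direction by limma (median 0.20), with 0 also at an unadjusted p below 0.05.

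**Figure D4:**
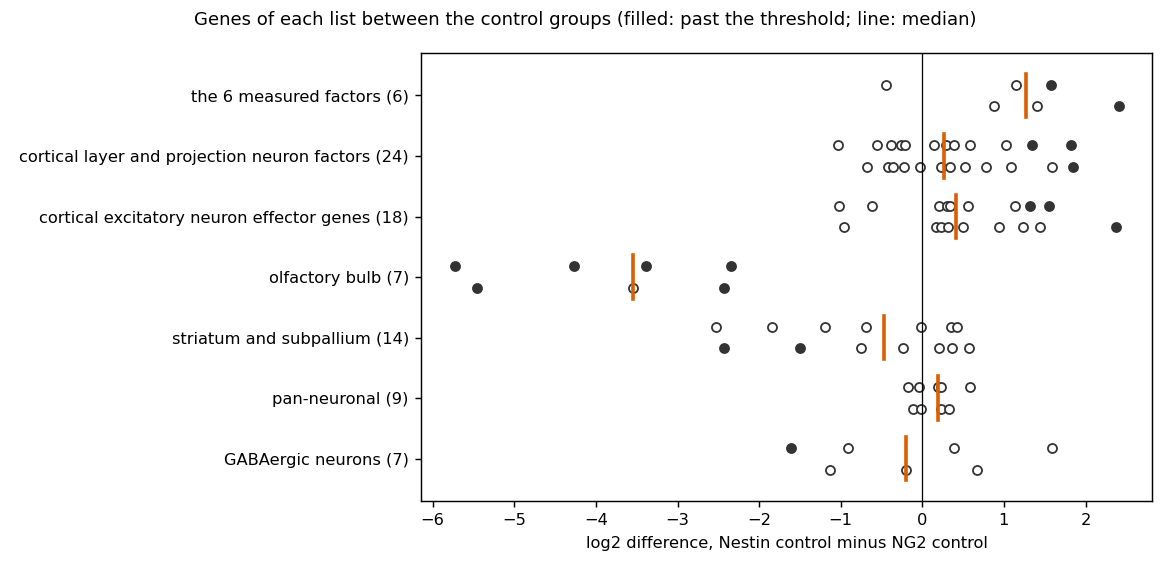
Log2 difference between Nestin controls and NG2 controls (horizontal axis) for the 6 measured factors and for the measured genes of 6 lists (numbers in brackets), with filled points past the threshold and the list median as a line. The olfactory bulb genes lie far below 0, while Tbr1 and Fezf2 lie above it.

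Striatal genes were set beside Bcl11b, which medium spiny neurons share. Of 14 measured striatum and subpallium genes 2 were lower in Nestin controls and 0 higher (median -0.46). Drd2, the dopamine receptor gene of a class of medium spiny neurons, read 7.35, 7.44 and 8.83 in Nestin controls from lowest to highest, against 5.76, 8.31 and 8.46 in NG2 controls. The mean level of the list was 8.18 in NG2 control 1, against 9.91 and 9.74 in the other two NG2 controls, while Bcl11b was highest in NG2 control 1. In Nestin tumors 5 of the 14 fell and 0 rose (median -1.22), with Drd2 at -2.44 ± 0.60 (adjusted p = 0.00417). In NG2 tumors 12 fell and 0 rose (median -2.85), with Drd2 at -2.13 ± 0.56 (adjusted p = 0.00575). The highest mean of the list among Nestin tumors, 7.99, was in Nestin tumor 1, which also had the highest Bcl11b. Among NG2 tumors the highest mean, 6.72, was in NG2 tumor 4, which had the lowest Bcl11b (6.59). The part of striatal neurons in the Bcl11b levels was not tested.

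Levels left in the tumors differed between models for some of the genes. Bcl11b was higher in Nestin tumors than in NG2 tumors by 1.50 ± 0.42 (adjusted p = 0.0427) and Lhx2 by 1.12 ± 0.28 (adjusted p = 0.024). The tumor groups did not overlap for these genes or for Tbr1, in the higher direction in Nestin tumors, which held for 10% of all genes. Of 8 genes 2 were higher past the threshold, where 5.54% of all genes were, and 0 were lower, where 3.45% were. Lhx2 was detected in 1 of 4 NG2 tumors, so its difference is not an exact size. Fezf2 differed by 1.12 (95% interval 0.27 to 1.97, adjusted p = 0.0955). Tbr1 and Neurod2 were detected in 0 of 4 NG2 tumors and 2 of 3 Nestin tumors, so no size of their differences can be read. Neither passed (adjusted p = 0.0636 and 0.139). Emx1 was at background in both.

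Both calls between tumors were fragile. In the fit over probes, ILMN_2611022 was the only Bcl11b probe that passed (adjusted p = 0.0475). ILMN_2436183, ILMN_2443624 and ILMN_1223119 differed by 1.43, 0.66 and 0.16 (adjusted p = 0.0626, 0.231 and 0.676). With the mean of all probes of a gene, Bcl11b differed by 0.94 and did not pass (adjusted p = 0.087). With the slide as a block they were 1.42 for Bcl11b and 1.91 for Lhx2 (adjusted p = 0.682 and 0.368), and no slide held tumors of both models. The Bcl11b call was lost without any single array of the 13 other than Nestin tumor 2 and NG2 tumor 2 (adjusted p from 0.0509 to 0.158), and the Lhx2 call without Nestin tumor 1, Nestin tumor 3, NG2 tumor 3 or NG2 tumor 4 (adjusted p from 0.0597 to 0.0827). Without Nestin tumor 1, Fezf2 passed (1.70, adjusted p = 0.00558), and so did Tbr1 and Neurod2 (adjusted p = 0.0464 and 0.0112), for which undetected NG2 tumors leave no exact size.

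Of 9 pan-neuronal genes 5 were higher in Nestin tumors than in NG2 tumors and 0 lower (median 1.49). Of all genes 5.54% were higher and 3.45% lower. With the slide as a block 0 of 11927 genes passed between the tumor groups, which shared no slide. The largest of the 9 differences was that of Rbfox3. Rbfox3, which encodes the neuronal marker NeuN, read 10.58, 11.64 and 11.77 in Nestin tumors from lowest to highest, against a range of 6.63 to 8.26 with a median of 7.34 in NG2 tumors, a difference of 3.94 ± 0.35 (adjusted p = 7.37e-05). Against their own controls Rbfox3 changed by -2.54 ± 0.37 in Nestin tumors and -6.24 ± 0.35 in NG2 tumors (adjusted p = 9.66e-05 and 8.4e-09). The mean level of 9 pan-neuronal genes ran from 9.22 to 10.36 in Nestin tumors, against 7.83 to 8.80 in NG2 tumors, and from 12.23 to 12.37 in Nestin controls, against 12.11 to 12.19 in NG2 controls. The part of remaining neurons in the tumor levels of the 6 genes was not tested.

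The tumor changes were compared between models by the difference of effects, the Nestin change minus the NG2 change. By limma 0 of the 6 measured genes passed, where 3.8% of all genes did, and 4 had an unadjusted p below 0.05. In the fit over all probes 4178 of 23904 probes had an unadjusted p below 0.05 for this difference. Fezf2 and Bcl11b, detected in every tumor, gave -1.29 (95% interval -2.54 to -0.05, adjusted p = 0.244), a larger fitted fall in the Nestin model, and 1.94 (0.61 to 3.28, adjusted p = 0.099), a larger fitted fall in the NG2 model. For the other four genes NG2 falls are bounds or rest on undetected tumors, so no order of the falls can be read. Their fitted values were -0.86 for Tbr1 (adjusted p = 0.17), -1.07 for Emx1 (adjusted p = 0.179), -0.08 for Neurod2 (adjusted p = 0.971) and 0.24 for Lhx2 (adjusted p = 0.803). Emx1 was at background in the tumors of both models, so its value lies close to the control difference of 1.14 with the sign turned.

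The falls of the 6 genes stood among falls of other cortical neuron genes. Of 18 measured effector genes of cortical excitatory neurons 15 fell and 0 rose in both Nestin tumors (median -2.84) and NG2 tumors (median -3.73), against medians of 0.06 and 0.09 over all genes. Slc17a7 changed by -5.46 ± 0.71 in Nestin tumors and -6.21 ± 0.66 in NG2 tumors (adjusted p = 3.47e-05 and 3.86e-06). Lamp5, a lysosome-associated membrane protein of neurons, changed by -5.95 ± 0.54 and -7.27 ± 0.51 (adjusted p = 1.56e-06 and 7.06e-08). Slc17a7 was detected in 2 of 3 Nestin tumors and 1 of 4 NG2 tumors. Of 7 GABAergic neuron genes, which belong to inhibitory neurons, 7 fell in each model.

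Other cortical factors were more mixed than the 6 genes. Over all 11927 genes, 52.6% of the 5520 calls in Nestin tumors and 52.4% of the 6043 calls in NG2 tumors were rises. Of the 24 layer and projection neuron factors 9 fell and 4 rose in Nestin tumors (median -0.46), and 9 fell and 5 rose in NG2 tumors (median 0.21). Mef2c, a MADS-box factor of cortical neurons, changed by -3.23 ± 0.40 in Nestin tumors and -2.92 ± 0.37 in NG2 tumors (adjusted p = 2.26e-05 and 2.06e-05). Zbtb18 fell by 1.87 ± 0.22 in Nestin tumors (adjusted p = 1.45e-05) and differed by -0.14 ± 0.20 in NG2 tumors (adjusted p = 0.583). Rorb, a nuclear receptor of granular-layer neurons, and Nfia and Nfib, nuclear factor I genes that also act in glia, rose in both. Of 8 measured dorsal telencephalon progenitor factors 1 rose in Nestin tumors and 0 fell, and 2 rose and 3 fell in NG2 tumors. Dmrta2, a regulator of cortical progenitors, was the one that rose in Nestin tumors, by 1.88 ± 0.35 (adjusted p = 0.000615). Of 12 diencephalon, midbrain and hindbrain genes 8 rose and 1 fell in each model.

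Markers of other cells were counted beside these falls. Of all 11927 genes, 5520 passed in Nestin tumors, 52.6% of them higher, and 6043 in NG2 tumors, 52.4% of them higher. Of 4 genes of dividing cells 4 rose in each model, and of 6 oligodendrocyte progenitor genes 4 rose in Nestin tumors and 6 in NG2 tumors. Of 7 oligodendrocyte genes 7 fell in Nestin tumors, and 5 fell and 1 rose in NG2 tumors. Astrocyte genes gave 1 rise and 1 fall of 8 in Nestin tumors, and 1 rise and 5 falls in NG2 tumors. Microglia and macrophage genes gave 2 rises and 0 falls of 5 in Nestin tumors, and 1 of each in NG2 tumors. Endothelial genes gave 1 rise and 1 fall of 5 in Nestin tumors, and 1 rise and 2 falls in NG2 tumors. Of 5 hippocampal genes 1 rose and 1 fell in Nestin tumors, and 1 rose and 3 fell in NG2 tumors. Of 4 cerebellar granule neuron genes 1 rose in Nestin tumors and 3 fell in NG2 tumors. Of those that fell, Cbln1 and Calb2 were also higher in NG2 controls than in Nestin controls. Of 7 olfactory bulb genes 2 fell and 1 rose in Nestin tumors (median -0.51), and 7 fell in NG2 tumors (median -3.88). The part of cell composition in the falls of the 6 genes was not tested.

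The genes whose pattern over arrays was most like that of the 6 genes were ranked by Pearson's r with the mean of their standardised levels. Over all 13 arrays, which fall into tumors and controls, these were Rph3a (0.992), Nckipsd (0.991), Lpcat4 (0.986), Ssh3 (0.986) and Itpka (0.984), and 99% of all other genes had a value below 0.961. Over the 6 control arrays, which fall into the 2 models, they were Osbp2 and Ntn5 (0.994 each), Odf4 (0.994), Osbpl1a (0.992) and Ptprd (0.992). These values describe likeness over shared arrays.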

How the data were processed

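The deposited table held a non-normalized intensity and a detection p-value per probe and array, per the file headers. Background subtraction by the scanner is not stated. A second deposited table, of 38563 probes, was read as log2 values made by the authors, since each column matched its own array's values computed here (r at least 0.999985, and at most 0.9883 with another array). Its method is not stated, and it served as an alternative.

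Intensities were corrected and quantile normalized with neqc (offset 16) in limma 3.58.1 under R 4.3.3. Probes detected on at least 3 arrays were kept (23904), and the brightest named probe stood for a gene. One model with a mean per group was fitted to 13 arrays (9 residual and 4.67 prior degrees of freedom, intensity trend), after tests on simulated data. Genes were named from the platform table, in which 32093 probes had 1 symbol, 16 several and 13172 none. Slides were read from array identifiers. Replicate numbers were not used to pair samples in the main fit.

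The 8 genes and the lists were chosen with earlier results of these data known. Named are the 8 genes, companion genes (Snap25, Emx2 and Neurod4 did not pass the filter, and some others are not reported here) and leading genes of the lists. The number of arrays limits the precision. Alternatives covered background, normalization, filter, probe choice, blocks, weights and left-out arrays.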

Additional observations from a re-analysis of the deposited data

Results flagged for a closer look

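The second Fezf2 probe, ILMN_2932692, is listed because its fitted difference of effects passed in the fit over all probes. It was -2.25 ± 0.41 on the log2 scale (Nestin change minus NG2 change, adjusted p = 0.00841). In Nestin tumors it fell by 5.03 ± 0.30, with 3 of 3 tumors below every control, and in NG2 tumors it was at least 3.94-fold lower, with 4 of 4 below every control. The probe was not detected in any NG2 tumor, so the size of the NG2 fall is known only as that bound. Nestin tumor 1 was not detected either, so the Nestin fall has no exact size and no order of the 2 falls can be read. Its control difference (Nestin minus NG2) was 2.82 ± 0.30 and its tumor difference 0.57 ± 0.28 (adjusted p = 6.83e-05 and 0.239). The brighter Fezf2 probe, ILMN_2512430, gave a difference of effects of -1.29 ± 0.57 in that fit (adjusted p = 0.257).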

How the results depend on the processing

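Over 672 values of the 6 genes under alternatives and left-out arrays, 622 kept their side of the threshold (or, without a test, their size). Calls among these kept their direction, but values that did not pass could change sign. The Neurod2 difference of effects, -0.08 in the main fit, ran from -0.94 to 0.70 with 1 array left out. Of the rest, 28 lost the call, 14 gained one, 8 moved with no test and 0 reversed a call. Of the 6 genes, 5 to 6 fell in Nestin tumors and 5 to 6 in NG2 tumors under every alternative run. The cause of the changes below was not tested. With normexp (offset 50) 1 of the 6 differences of effects passed, and with no background correction 2. The 2 genes higher in Nestin than NG2 tumors became 0 with no background correction, the slide block, the replicate block and a fit of the 2 groups alone. There 3 to 5 of the 6 genes were higher at an unadjusted p below 0.05 by limma. Of all 11927 genes, 1017 had such a p in either direction with the slide block, 2548 with the replicate block and 2326 with the 2 groups alone. The count of 2 became 1 with median scaling, no filter and array weights, and 0 to 3 with 1 array left out. The 2 genes higher in Nestin controls became 0 with the slide block and 2 to 3 with 1 array left out. With the slide block 5 were higher at an unadjusted p below 0.05 by limma, a cut that 1229 of 11927 genes passed in either direction. No background correction shrank the Nestin changes of Tbr1 to -3.59, Emx1 to -0.70 and Lhx2 to -0.40, and the NG2 changes of Tbr1 to -2.41, Fezf2 to -1.86, Neurod2 to -2.25, Emx1 to -0.29 and Lhx2 to -0.37, with all of these calls kept.

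Over all genes, 5520 passed for the Nestin tumor change, 6043 for the NG2 tumor change, 414 for controls, 1072 for tumors and 453 for the difference of effects. At the probe level 10288, 11579, 747, 1684 and 774 probes passed in that order. The slide block gave 85 for controls, 0 for tumors (1017 at an unadjusted p below 0.05 by limma) and 184 for the difference of effects. Array weights gave 828 for controls and 829 for the difference of effects. A fit of the 2 groups alone gave 952 for controls and 166 for tumors. Leaving out 1 array gave 4621 to 5069, 5076 to 5890, 187 to 257, 664 to 1262 and 192 to 635 in the same order. The count for controls fell by over 1.5 times without any of the 6 controls, and the count for tumors without Nestin tumor 3. The replicate block gave 705 for tumors. The labels do not pair same-numbered arrays, some of which shared a slide. Their deviations correlated between -0.15 and 0.06, and the replicate block changed no tumor-control call of the 6 genes.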
